A study of Mus musculus with 8 samples.

Results

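The genes described here encode the subunits of respiratory complexes III, IV and V and the electron carrier between complexes III and IV. They were taken as every gene name on the array that begins with Uqcr, Cox4 to Cox8 followed by a letter, or Atp5, together with Cyc1 and Cycs. This gave 43 of the 27745 gene names, each represented by its brightest probe. Of the 43, 8 belong to complex III, 16 to complex IV and 15 to ATP synthase, and Cycs encodes cytochrome c. The name pattern also took in Cox7a2l, which encodes a protein that helps complexes III and IV associate, Atp5s, which encodes a factor associated with ATP synthase, and Cox4nb, an older name of Emc8, a subunit of a complex of the endoplasmic reticulum and not of the respiratory chain. These 3 genes are counted among the 43 and kept out of the counts by complex.

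Whole-heart total RNA was measured from 8 male mice aged 12 weeks, 1 mouse per 1-colour Agilent array. A group of 4 mice was wild type (WT) and a group of 4 overexpressed PKR2, which is taken to mean prokineticin receptor 2, a receptor that signals through G proteins. The labels give no strain, no promoter or species of the transgene and no number of transgenic lines, so the cell type that carried the receptor is not known here. The 1 probe of Prokr2 stayed at background in all 8 hearts, and it does not check the labels where a transgene differs from it. The arrays were spread over 6 slides, of which slides 5 and 6 carried an array of either group (WT 3 with PKR2 3, and WT 4 with PKR2 4). A level below is log2 signal minus the array's own 75th percentile, the signal that 75% of spots stay under, and differences are PKR2 minus WT. The 75th percentile itself ran from 40.9 (WT 2) to 766 (PKR2 1) signal units. All 8 markers of cardiomyocytes looked up were measured, with a median difference of 0.07.

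Complex III passes electrons from ubiquinol to cytochrome c, complex IV passes them from cytochrome c to oxygen, and both pump protons across the inner mitochondrial membrane. ATP synthase, complex V, lets the protons return through its membrane rotor and uses the flow to make ATP. The heart depends on this pathway for nearly all of its ATP. Several subunits of complex IV exist as a form made in heart and skeletal muscle (Cox6a2, Cox7a1, Cox8b) and a form made in most tissues (Cox6a1, Cox7a2, Cox8a). The rotor's c subunit is encoded by Atp5g1, Atp5g2 and Atp5g3, whose products differ in the import sequence that is cleaved off and share the mature protein.

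The promoter windows of the 3 c subunit genes and of Cox6a1 are shown because the closest results concern these genes. Each runs from 250 bases before to 50 bases after the start site in RefSeq, build GRCm38.p6, written 5′ to 3′ on the gene's strand, which is the minus strand for all 4. Capitals mark a match to the core letters of nuclear respiratory factor 1 (NRF1), GCGCANGCG, or, in the case of the first capitals in Atp5g3, to the letters bound by oestrogen-related receptors (ERR), TCAAGGTCA, on either strand. The Atp5g1 window is chr11:96075582-96075881, that of Atp5g2 is chr15:102670998-102671297, that of Atp5g3 is chr2:73911277-73911576 and that of Cox6a1 is chr5:115348909-115349208.
Atp5g1: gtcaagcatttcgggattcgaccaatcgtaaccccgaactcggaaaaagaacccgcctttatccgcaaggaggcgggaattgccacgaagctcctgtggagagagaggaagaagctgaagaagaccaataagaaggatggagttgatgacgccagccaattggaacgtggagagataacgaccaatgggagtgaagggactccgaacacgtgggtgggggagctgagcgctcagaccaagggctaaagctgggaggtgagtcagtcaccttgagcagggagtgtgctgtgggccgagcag
Atp5g2: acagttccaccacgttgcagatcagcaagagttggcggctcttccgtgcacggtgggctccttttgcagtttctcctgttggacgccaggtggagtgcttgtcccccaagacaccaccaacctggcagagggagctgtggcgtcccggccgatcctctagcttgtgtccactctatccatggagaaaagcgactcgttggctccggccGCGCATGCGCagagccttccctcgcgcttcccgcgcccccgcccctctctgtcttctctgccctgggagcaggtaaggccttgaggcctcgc
Atp5g3: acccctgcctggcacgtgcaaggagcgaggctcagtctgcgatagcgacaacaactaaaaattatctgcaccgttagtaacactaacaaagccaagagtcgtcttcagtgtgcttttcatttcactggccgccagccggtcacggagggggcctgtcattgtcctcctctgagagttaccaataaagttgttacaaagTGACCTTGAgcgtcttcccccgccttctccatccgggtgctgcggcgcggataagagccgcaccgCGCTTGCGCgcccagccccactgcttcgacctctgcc
Cox6a1: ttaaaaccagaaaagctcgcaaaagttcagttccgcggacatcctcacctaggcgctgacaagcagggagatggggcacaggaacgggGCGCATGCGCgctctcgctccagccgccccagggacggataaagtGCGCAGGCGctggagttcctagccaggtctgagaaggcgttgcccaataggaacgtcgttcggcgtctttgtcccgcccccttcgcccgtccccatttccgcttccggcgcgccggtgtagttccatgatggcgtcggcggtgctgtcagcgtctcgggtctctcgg

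The 3 genes of the same mature c subunit thus differ in these letters. Atp5g1 held neither motif, Atp5g2 held the NRF1 core on both strands at overlapping places, and Atp5g3 held one NRF1 core and one ERR motif. Cox6a1 held the NRF1 core at 2 places, the upstream one again read on both strands. The RefSeq table held windows for 32 of the 43 genes; Cox6a2, the partner of Cox6a1, was not among them. The NRF1 core occurred in 11 of the 32 (34.4%) and in 7.03% of the 27025 genes with a window. The motif of GABP, the other nuclear factor named for this pathway (CCGGAAGT), occurred in 4 of 32 (12.5%, against 4.31% of all genes), namely Atp5h, Cox8a, Uqcr and Uqcrh. The YY1 motif AAGATGGCG occurred in 2 of 32 (Atp5j and Atp5j2, 6.25%, against 1.64%), the ERR motif in Atp5g3 alone (3.12%, against 0.466%), and the MEF2 motif CTAAAAATA in none (0.588% of all genes). Median GC content was 56.3% over the members' windows and 52.7% over all windows. A match says only that the letters are there.

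No gene of the 43 differed between PKR2 and WT hearts at limma's adjusted p threshold of 0.05. Of the 43, 42 passed the filter on dim probes, and 41 of these were well above background on all 8 arrays. Across all 15696 features tested, limma called 0%, and 2.46% had an unadjusted p under 0.05; none of the 42 genes did. Arrays of the 2 groups overlapped in all 42, where 0.815% of all features were higher in every PKR2 array than in every WT array and 0.841% were lower. Of the 42, 13 had a higher and 29 a lower mean in PKR2 hearts, and the median difference was -0.05, against 0.01 over all features. The sign of that median rests on single arrays: it was 0.05 without WT 2, 0.01 without PKR2 3 and 0.02 without PKR2 4. With the arrays scaled to their medians 3 genes were higher and 39 lower, and with normexp background correction 38 were higher and 4 lower, a count that was 34 higher once 1 spot of WT 1 was left out and 15 higher once the arrays were also brought to a common scale. Genes whose names start with Nduf, here called complex I genes, gave 10 higher and 27 lower of 37 tested, with a median of -0.05. Most of them encode subunits of complex I. Counted among the 37 are also Ndufaf1 and Ndufa12l, which encode assembly factors, and Ndufa4, now assigned to complex IV. Ndufa4, outside the name pattern of the 43 genes, differed by -0.17. By complex, 1 of 8 complex III genes was higher, 5 of 15 complex IV genes and 7 of 15 ATP synthase genes, with medians of -0.05, -0.07 and -0.02.

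**Figure D1:**
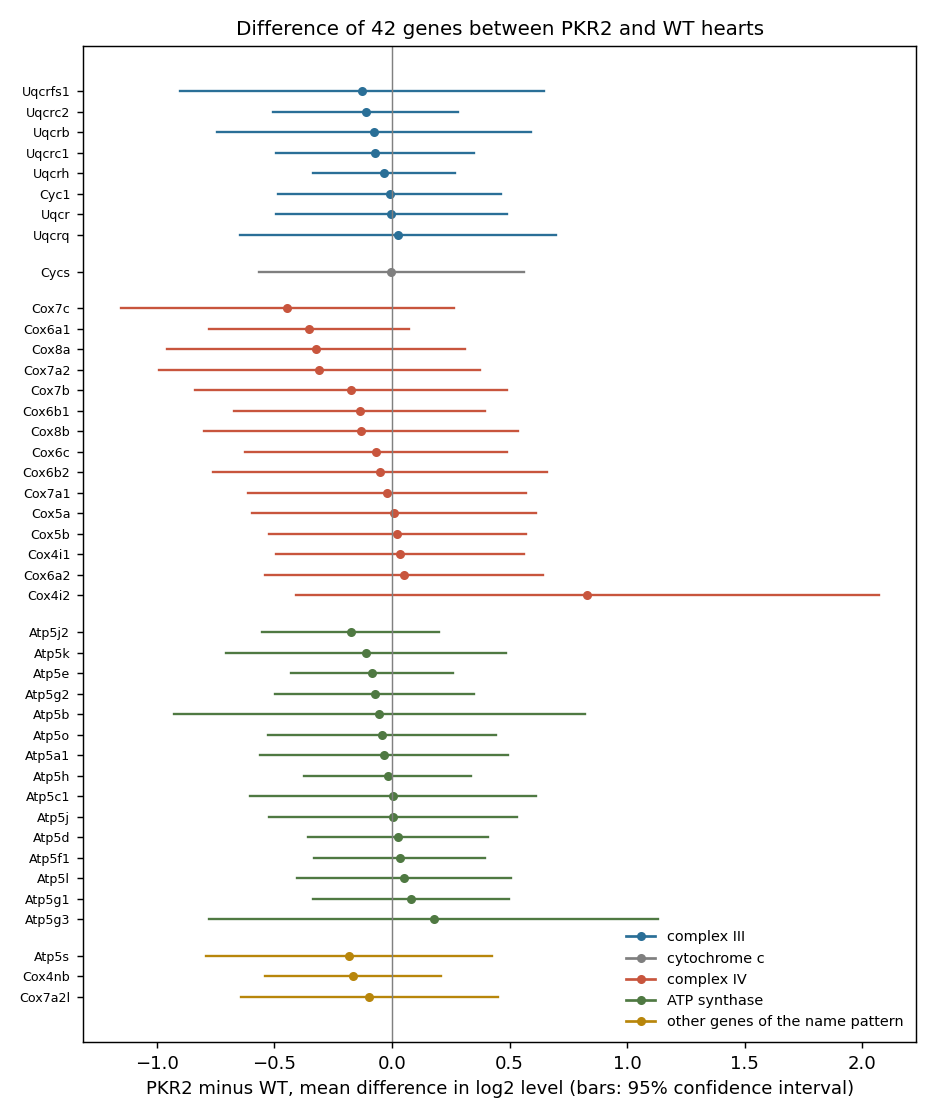
Mean difference in log2 level, PKR2 minus WT, of the 42 tested genes, with 4 arrays per group; points are differences and bars are 95% confidence intervals from limma. Every interval crosses 0, and the narrowest is that of Uqcrh, which runs from -0.34 to 0.27.

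The intervals show what 4 arrays per group could and could not resolve. Uqcrh, the hinge protein of complex III, had the narrowest, from -0.34 to 0.27. Atp5h, the d subunit of the ATP synthase stalk, had one from -0.37 to 0.34. At the other end, leaving aside the dim Cox4i2, Atp5g3 had an interval from -0.78 to 1.13 and Atp5b, the catalytic beta subunit, one from -0.93 to 0.82. A change of the size of the median difference was therefore not detectable for any of them.

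Complex III has a catalytic core of Cyc1, cytochrome c1, and Uqcrfs1, the Rieske iron-sulfur protein, beside the cytochrome b that the mitochondrial genome encodes. Cyc1 was at 6.85, 7.43, 7.26 and 7.07 in WT 1 to 4 and at 6.97, 7.67, 6.99 and 6.94 in PKR2 1 to 4, a difference of -0.01 (SE 0.21). Uqcrfs1 was at 7.05, 8.22, 7.82 and 7.0 in WT and 6.98, 8.2, 7.2 and 7.22 in PKR2 hearts, and the means differed by -0.13 (SE 0.35, limma adjusted p = 1.0). In both genes WT 2 and PKR2 2 were the highest arrays, and the groups overlapped. The core proteins Uqcrc1 and Uqcrc2 carry the complex on its matrix side. Uqcrc1 was at 7.91, 7.68, 7.56 and 7.63 in WT and 8.02, 7.75, 7.33 and 7.40 in PKR2 hearts, and the means differed by -0.07 (SE 0.19). Uqcrc2 was at 7.33, 7.78, 7.66 and 7.67 in WT and 7.25, 7.84, 7.47 and 7.43 in PKR2 hearts, and the means differed by -0.11 (SE 0.18). Uqcrq, a small accessory subunit, was the complex III gene with a higher mean in PKR2 hearts, by 0.02 (SE 0.30), at 8.48, 9.13, 8.85 and 8.04 in WT and 8.51, 9.39, 8.36 and 8.34 in PKR2. Uqcrb, Uqcrh and Uqcr differed by -0.08, -0.03 and less than 0.01. Uqcr10, listed on the array under a clone name and so outside the name pattern, differed by -0.04. Cycs, the soluble carrier to complex IV, was at 7.65, 8.56, 8.45 and 8.04 in WT and 7.79, 8.66, 8.15 and 8.09 in PKR2 hearts, and its group means differed by less than 0.01 (SE 0.25).

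In complex IV, leaving aside the dim Cox4i2, the differences farthest from 0 lay among the small nuclear subunits, with Cox6a1, Cox7c, Cox8a and Cox7a2 each at least 0.3 lower in mean in PKR2 hearts, none past the threshold. Cox6a1 (probe at chr5:115606716-115606775, mm8) had the smallest p of all 42 genes. It was at 7.98, 8.49, 8.18 and 8.06 in WT and 7.52, 8.21, 7.80 and 7.77 in PKR2 hearts, and the means differed by -0.35 (SE 0.19, 95% interval -0.78 to 0.07, unadjusted p = 0.0940, limma adjusted p = 1.0). PKR2 2 alone of the PKR2 arrays lay inside the WT range. The difference was -0.38 on slide 5 and -0.29 on slide 6. The heart form Cox6a2 was at 8.99, 9.51, 9.20 and 8.70 in WT and 8.98, 9.85, 8.94 and 8.82 in PKR2 hearts, and the means differed by 0.05 (SE 0.26), with the groups overlapping throughout.

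Cox7c, a small subunit with no second form on this array, was at 4.91, 5.96, 5.92 and 5.23 in WT and 4.58, 5.78, 4.98 and 4.89 in PKR2 hearts, and the means differed by -0.45 (SE 0.32, limma adjusted p = 1.0). Cox7a2 was at 6.43, 7.34, 7.54 and 6.73 in WT and 6.24, 7.35, 6.65 and 6.57 in PKR2, and the means differed by -0.31 (SE 0.30). Its heart partner Cox7a1 was at 8.86, 9.68, 9.23 and 8.83 in WT and 8.98, 9.76, 8.92 and 8.85 in PKR2, and the means differed by -0.02 (SE 0.26). The SD within each group was larger than the difference in each of the 3 genes. Cox8a was at 6.08, 5.23, 4.90 and 5.78 in WT and 5.69, 4.91, 5.04 and 5.06 in PKR2 hearts, and the means differed by -0.32 (SE 0.28). It was lowest in WT 3 and PKR2 2, where most of the other genes were high. Cox8b, the heart form, was at 7.42, 8.28, 8.21 and 7.58 in WT and 7.44, 8.52, 7.57 and 7.43 in PKR2, and the means differed by -0.13 (SE 0.30). Cox7b, on the X chromosome, was at 5.95, 6.82, 6.99 and 6.65 in WT and 6.02, 7.16, 6.31 and 6.23 in PKR2, and the means differed by -0.18 (SE 0.30).

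Cox4i1, the main form of the subunit 4 that takes part in regulation of the enzyme by ATP, was at 8.77, 9.29, 8.84 and 8.72 in WT and 8.77, 9.58, 8.77 and 8.63 in PKR2 hearts, and the means differed by 0.03 (SE 0.23). The alternative form Cox4i2, known from lung, did not rise well above background in WT hearts and did so on 3 PKR2 arrays (1, 2 and 4). Its measured signal was -5.63, -4.33, -5.18 and -5.38 in WT and -4.25, -3.42, -6.06 and -3.47 in PKR2, so PKR2 3 was the lowest of all 8. The WT level was not resolved. WT 1 and WT 2 were counted at the array's lowest signal well above background, and WT 3 and WT 4 at the probe's own signal, which was higher. The mean of the measured PKR2 signals was 1.51-fold above the mean of these WT values. This is not a lower limit of the difference, because PKR2 3 was not well above background either and entered at its measured signal. The limma interval of the difference ran from -0.41 to 2.07 (limma adjusted p = 1.0). Cox4i2 passed the filter on dim probes through the PKR2 group alone, so the filter favoured a higher PKR2 mean. Cox6b1, a subunit on the outer side of the complex, was at 3.08, 3.48, 3.84 and 3.14 in WT and 3.34, 3.73, 2.96 and 2.96 in PKR2, and the means differed by -0.14 (SE 0.24). Its testis form Cox6b2 was above background on all 8 arrays, at -0.70, -0.65, -1.68 and -1.34 in WT and -0.64, -0.73, -1.74 and -1.46 in PKR2, and the means differed by -0.05 (SE 0.32). In both groups Cox6b2 was higher on arrays 1 and 2 than on arrays 3 and 4. Cox8c, the testis form of subunit 8, and Cox7b2, listed under a clone name, stayed at background throughout. Cox5a, Cox5b and Cox6c differed by 0.01, 0.02 and -0.07.

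In ATP synthase the differences of all 15 genes lay between -0.18 and 0.18. Atp5j2, the f subunit of the membrane part, had the smallest p, at 7.15, 7.49, 7.51 and 7.69 in WT and 7.27, 7.55, 7.17 and 7.16 in PKR2 hearts, and the means differed by -0.18 (SE 0.17, limma adjusted p = 1.0). Atp5e, the epsilon subunit of the central stalk, was at 7.94, 8.06, 8.22 and 8.21 in WT and 7.97, 8.30, 7.87 and 7.95 in PKR2, and the means differed by -0.08 (SE 0.15). Both genes varied little between arrays. The catalytic head, built from Atp5a1 (alpha) and Atp5b (beta), differed by -0.03 and -0.05, and its gamma, delta and peripheral stalk partners Atp5c1, Atp5d, Atp5f1, Atp5h, Atp5j and Atp5o by -0.04 to 0.03.

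Of the c subunit genes, Atp5g1 was at 7.48, 7.42, 7.35 and 7.52 in WT and 7.84, 7.78, 7.23 and 7.23 in PKR2 hearts, and the means differed by 0.08 (SE 0.18). Atp5g2 was at 6.61, 6.76, 6.44 and 6.72 in WT and 6.89, 6.79, 6.32 and 6.24 in PKR2, and the means differed by -0.07 (SE 0.19). In both genes PKR2 1 and 2 lay above all WT arrays and PKR2 3 and 4 below them. Atp5g3 was at 8.78, 9.88, 9.17 and 8.13 in WT and 8.65, 10.22, 9.0 and 8.80 in PKR2, and the means differed by 0.18 (SE 0.43). With a distance of 2.09 between PKR2 2 and WT 4, it spread more over the arrays than any other tested gene of the set but Cox4i2 (2.63). The remaining membrane subunits Atp5k (e) and Atp5l (g) differed by -0.11 and 0.05. Atp5md and Atp5mpl, small membrane subunits listed under other names, differed by -0.05 and -0.10. Of the genes that the name pattern took in beside the subunits, Cox7a2l differed by -0.10, Atp5s by -0.18 and Cox4nb by -0.17.

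The tissue forms were compared within each array, by subtracting the level of one gene of a pair from that of the other. The size of this balance depends on the probes and gives no ratio of transcripts, but a change in it between groups can be read. Of 10 pairs listed, 7 had both genes above background on every array. For Cox6a2 minus Cox6a1 the balance was 1.01, 1.02, 1.02 and 0.64 in WT 1 to 4 and 1.47, 1.65, 1.14 and 1.05 in PKR2 1 to 4. Every PKR2 array lay above every WT array, though PKR2 4 exceeded the highest WT array by little. The means were 0.92 ± 0.19 (SD, n = 4) and 1.33 ± 0.28 (SD, n = 4), a difference of 0.40 with a two-sided exact permutation p of 0.0286, the smallest that 4 against 4 arrays can give. Adjusted over the 7 pairs by the Benjamini-Hochberg method it was 0.1 and missed the threshold. The difference was 0.12 on slide 5 and 0.40 on slide 6, and 0.31 without WT 4 (exact permutation p = 0.171). The groups overlapped with the authors' deposited values (0.31, exact permutation p = 0.0571) and with normexp background correction (0.35, p = 0.114).

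For Atp5g1 minus Atp5g2 the balance was 0.87, 0.65, 0.90 and 0.80 in WT and 0.96, 0.99, 0.91 and 0.99 in PKR2 hearts. Again every PKR2 array was the higher, and PKR2 3 (0.91) and WT 3 (0.90), which shared slide 5, were nearly equal. The difference was 0.15 (means 0.81 ± 0.11 and 0.96 ± 0.04, SD, n = 4 each) with an exact permutation p of 0.0286 and an adjusted p of 0.1 over the 7 pairs. It was 0.30 both with the authors' deposited values and with normexp, and the groups overlapped with quantile normalization (0.17, exact permutation p = 0.0857).

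The other 5 pairs overlapped. Cox7a1 minus Cox7a2 moved by 0.29 (95% half-width 0.49, exact permutation p = 0.257, adjusted 0.6), with 2.43, 2.34, 1.68 and 2.11 in WT and 2.75, 2.42, 2.27 and 2.28 in PKR2 hearts. Cox8b minus Cox8a moved by 0.19 with a half-width of 1.5 (exact p = 0.771), and Cox6b2 minus Cox6b1 by 0.09 with a half-width of 0.99 (exact p = 0.857). The pairs of Atp5g1 and of Atp5g2 with Atp5g3 moved by -0.10 and -0.25, with half-widths of 1.26 and 1.23 (exact p = 0.857 and 0.686). Of the 3 heart-minus-ubiquitous balances of complex IV none passed the threshold after adjustment. That of Cox8b and Cox8a was -0.15 without WT 1 and -0.16 without PKR2 2, was -0.78 on slide 5 and 0.57 on slide 6, and was -0.14 with the adipocyte markers as a covariate.

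**Figure D2:**
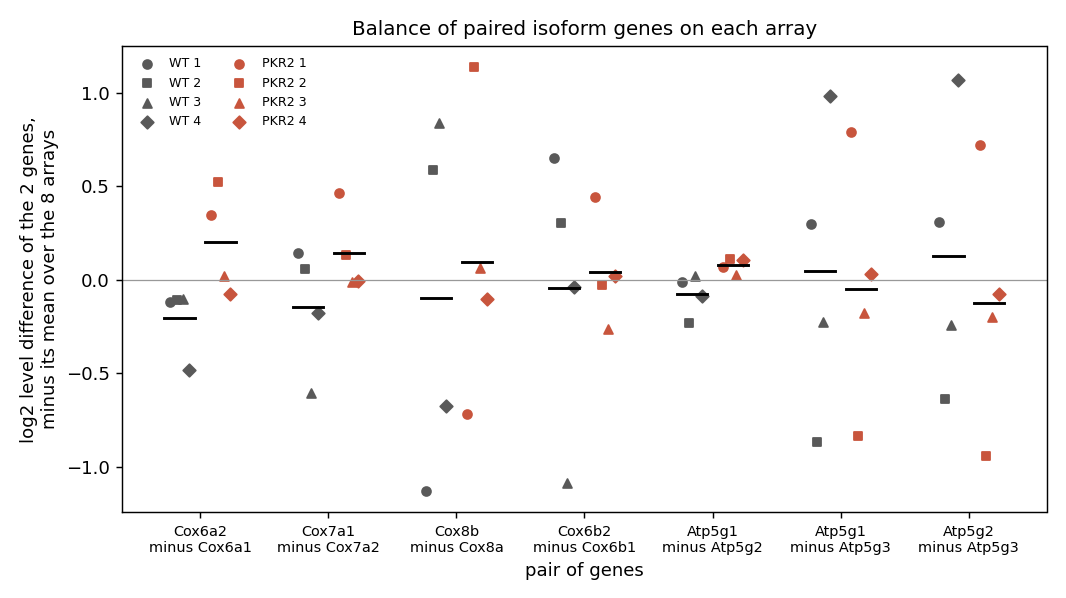
Difference in log2 level between the 2 genes of each testable pair on each array, with the pair's mean over the 8 arrays subtracted; grey marks are WT, red marks PKR2, marker shapes give the replicate and black lines the mean of 4 arrays. The groups lie apart for Cox6a2 minus Cox6a1 and, over a much smaller range, for Atp5g1 minus Atp5g2.

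Beside the balance of Cox6a2 and Cox6a1, the levels of fat cell markers are given. All 10 of the adipocyte markers tested had lower means in the PKR2 group, by a median of -1.94, but limma called none at an adjusted p of 0.05, 7 had an unadjusted p under 0.05, and the groups overlapped in each. Their median deviation per array was 1.20, 1.33, -0.12 and 1.20 in WT 1 to 4 and -2.69, -2.25, 0.71 and 0.31 in PKR2 1 to 4. PKR2 1 and PKR2 2, the hearts with the lowest adipocyte markers, had the highest Cox6a2 minus Cox6a1 balance. With the mean adipocyte marker level of each array as a covariate, the balance differed by 0.14. On slide 5 the adipocyte markers were higher in the PKR2 heart (median 0.74), and the balance was higher in that heart by 0.12. On slide 6 the markers were lower in the PKR2 heart (median -0.67), and the balance was higher in that heart by 0.40. Each slide holds 1 heart per group. The part of the adipocyte markers in the result was not tested further. In whole-tissue RNA a change in the share of a cell type and a change within its cells cannot be told apart.

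Arrays of the same group differed in the measured level of many of the 42 genes. With 1 array per heart, a difference between hearts and one between arrays cannot be told apart. The median deviation of the 42 genes from their own means over the 8 arrays was -0.16, 0.35, 0.11 and -0.16 in WT 1 to 4 and -0.14, 0.49, -0.20 and -0.25 in PKR2 1 to 4. WT 2 and PKR2 2 were the 2 highest arrays of 22 of the 42 genes (52.4%), a pattern looked for after the values were seen, where 9.72% of all features and 20.4% of the brightest 10% of features had it. It held for 6 of 8 complex III genes, 8 of 15 complex IV genes and 7 of 15 ATP synthase genes, and for 7 of 37 complex I genes (18.9%). Cox7a2l, Cox8a, Atp5f1 and Cox4nb went the other way, with means in these 2 arrays that differed from the other 6 by -0.57, -0.36, -0.30 and -0.27. The median deviation of complex I genes in these hearts was 0.12 and 0.26, that of cardiomyocyte markers 0.04 and 0.24, and that of erythroid markers 0.43 and 0.98. WT 2 was the dimmest array, while the 75th percentile of PKR2 2, 318, lay in the middle of the range. The share of spots well above background was lowest in these 2 arrays, at 48.3% in WT 2 and 52.8% in PKR2 2. In the others it ran from 54.6% (WT 1) to 67.1% (PKR2 1). The part of this share in the pattern was not tested. Without both arrays the median difference of the 42 genes was -0.10.

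**Figure D3:**
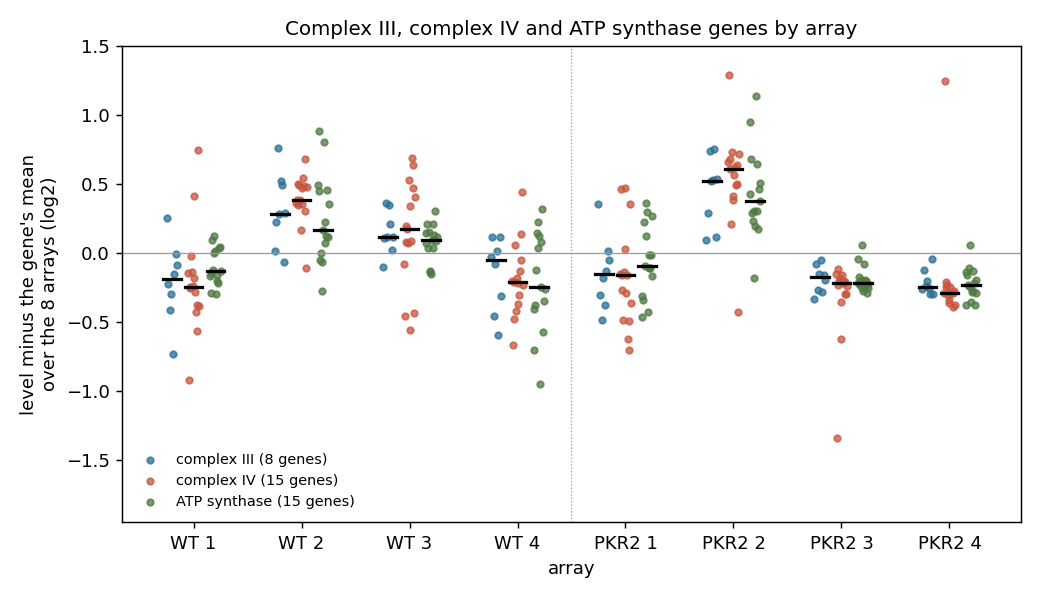
Level of each complex III, complex IV and ATP synthase gene on each array minus its mean over the 8 arrays, on the log2 scale; points are genes and black lines the median of a complex. The medians of all 3 complexes lie highest in PKR2 2 and next highest in WT 2.

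Probes of the same gene did not always share this pattern. For 10 of the genes 2 or 3 probes were above background on all 8 arrays. The 3 probes of Cycs lay higher in WT 2 and PKR2 2 than in the other 6 arrays, by 0.39 to 0.58, and both Cox7a2 probes, which overlap, by 0.59 and 0.65. The 3 probes of Atp5b disagreed. The probe nearest the 3′ end (chr10:127493148-127493207, mm8), which is the brightest and stands for the gene above, was higher in WT 2 and PKR2 2 by 1.22, while the 5′-most and the middle probe were lower by -0.43 and -0.34. PKR2 minus WT was -0.05 for the first, -0.01 for the 5′-most and 0.10 for the middle one. Probes also disagreed on the direction of the WT 2 and PKR2 2 deviation in Atp5f1, Atp5g2, Atp5s and Uqcrc1. In Atp5f1 the disagreement rests on the 5′-most probe, which was dim (levels of -3.90 to -3.04). Beside Atp5b, 6 genes had a known strand and outermost probes that did not overlap: the 3′ probe was the higher in WT 2 and PKR2 2 by 0.44 in Atp5g2, 0.58 in Atp5s and 0.28 in Uqcrc1, and the lower by -0.58 in Atp5f1, -0.19 in Cycs and -0.07 in Uqcrh. No single order along the transcript held for all 7 genes. The value of Atp5f1 uses its dim 5′-most probe. Its middle and 3′ probes, both far brighter, deviated by -0.62 and -0.30, which is the other order. The value of Atp5s rests on a dim 5′-most probe as well (levels of -0.53 to 0.47). With the mean of both Atp5g2 probes in place of the brighter one, the Atp5g1 minus Atp5g2 balance differed by 0.16 (exact permutation p = 0.0857).

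**Figure D4:**
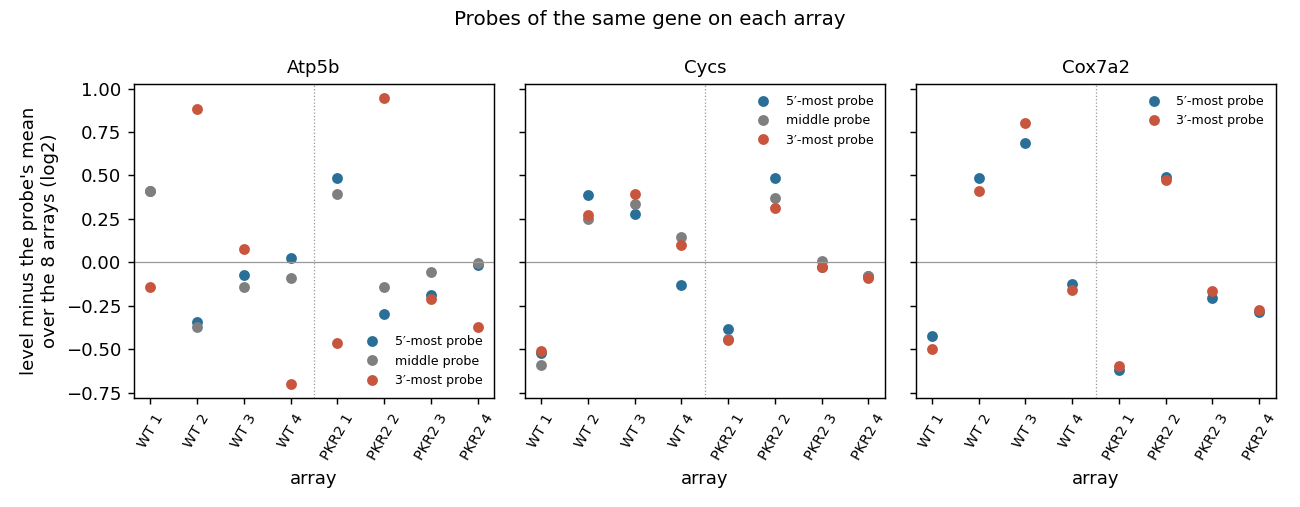
Level of each probe of Atp5b, Cycs and Cox7a2 on each array minus that probe's mean over the 8 arrays, on the log2 scale; colours give the order of the probes along the transcript. The probes of Cycs and of Cox7a2 move together, and the 3′-most Atp5b probe is highest in WT 2 and PKR2 2, where the other Atp5b probes are low.

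Within the slides that held both groups, 39 of the 42 genes were lower in the PKR2 heart on slide 5 and 26 on slide 6, with medians of -0.31 and -0.12. Over all 15696 features, 8050 were lower on slide 5 and 8508 on slide 6, with medians of -0.01 and -0.03. The brightest 10% of features had medians of -0.19 and -0.12, so the slide 6 median of the 42 genes was that of bright features in general. Of the 42, 23 (54.8%) were lower on both slides and none was higher on both, where 30.9% of all features were lower on both. That share was not computed for the brightest 10% of features, so the comparison does not allow for brightness. Complex I genes gave 22 of 37 lower on both slides (59.5%). All 8 complex III genes, 14 of 15 complex IV genes and 14 of 15 ATP synthase genes were lower on slide 5, and 5, 10 and 8 on slide 6. Each slide holds 1 heart per group, so these are differences between single hearts and their arrays. The scanner covered a single range for WT 2, WT 4 and PKR2 4 and an extended one for the other arrays; the median difference was 0.04 among extended and -0.29 among single-range arrays. The scan range and single hearts cannot be told apart here.

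Genes that build, supply or switch on the complexes were not called either. None of 4 complex II subunit genes, 3 complex III assembly genes, 11 genes of complex IV assembly and copper delivery, 5 genes of ATP synthase assembly and regulation and 12 regulators passed the threshold, with medians of 0.00, -0.10, -0.03, -0.05 and -0.08. The 5 ATP synthase genes include Usmg5, the array's name for Atp5md, given above as a membrane subunit. Its difference is the median of that list. Among the regulators, Ppargc1a, a coactivator that raises mitochondrial gene expression, differed by -0.16 (SE 0.42), Esrra, a nuclear receptor that acts with it, by 0.04 (SE 0.14), and Nrf1 by 0.33 (SE 0.24). Cox17, which carries copper to complex IV, differed by 0.25 (SE 0.67), and Atpif1, the inhibitor of ATP synthase, by -0.10 (SE 0.17). Slc25a4 and Slc25a5, the carriers that exchange the ATP made for ADP, differed by 0.06 (SE 0.40) and 0.08 (SE 0.14). The regulators' levels across the arrays were highest in WT 3 (median deviation 0.46), not in WT 2 and PKR2 2 (0.14 and 0.19).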

How the data were processed

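Tri-Reagent extracts of whole hearts were labelled with Cy3, per the labels' protocols. Agilent Feature Extraction 9.5.1.1 produced the spot values, and probe positions are those of mm8, per the file headers. The deposited scanner files hold spot intensity on a linear scale, background-subtracted by that software and not normalized between arrays. An alternative used the authors' deposited series values, which are intensity made comparable between arrays (column medians of 139 to 144). How this was done is not given in the sources used here, and their scale was read as linear.

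Control and outlier-flagged spots were left out, saturated spots kept (none lay on a member's probe) and spots of a probe averaged. Log2 intensity was computed from the deposited signal and each array's 75th percentile subtracted. A gene name was represented by its brightest probe and tested where its probe stood well above background on 3 or more arrays of either group of 4. Limma 3.58.1 in R 4.3.3, with the package data.table (version 1.17.8), was fitted to all 15696 features without covariates, with Benjamini-Hochberg adjustment at 0.05; the procedure was tested on simulated data. P-values without another name come from it. Isoform balances were compared over all 70 relabelings. For a group below background, each array counted at its lowest signal well above background, or at the probe's signal if that was higher. Each mouse is 1 replicate, and the number of arrays limits the precision.

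Members, lists and tests were chosen with earlier results of these data known. Values per array are given for the isoform pairs, Cyc1 and Cycs and, in each complex, for the 3 genes of smallest p and the gene of highest mean level. Atp5b, Prokr2 and other genes named by their difference alone fall outside this rule. Promoter windows and gene strands were taken from RefSeq, build GRCm38.p6. Alternatives covered background correction, scaling, the deposited values, the probe filter and choice, gene keys, slide, array position, scan range, the adipocyte markers, the variance model and leaving out each array. Chosen after seeing the data were leaving out WT 2 and PKR2 2 together, normexp without 1 spot, on its own and at a common scale, and the second Cox7a2 probe.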

Additional observations from a re-analysis of the deposited data

Results flagged for a closer look

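Among 60 groups of 4 arrays checked (the levels and balances of the named genes in each group), 7 had an array far from the other 3; chance alone flags about 1 in 20 such groups. In the PKR2 group the array PKR2 2 stood far above the other 3 in Cox6a2 (9.85), Cox7a1 (9.76), Cox8b (8.52), Cox4i1 (9.58), Cyc1 (7.67) and Uqcrq (9.39), on the log2 scale relative to the array's 75th percentile. These are 6 genes of 1 heart on 1 array and not separate events. In the WT group the Cox6a2 minus Cox6a1 balance of WT 4 was 0.64, below the other 3 WT arrays.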

How the results depend on the processing

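No gene of the set was called under any of the 25 alternatives (1 other feature was called under 6 of them), and neither of the 2 balances whose groups lay apart passed after adjustment where the exact test could be run. Because most differences lay close to 0, many changed sign; the values below, on the log2 scale as PKR2 minus WT, are those with a changed sign, with the 2 exceptions named. With normexp background correction the median was 0.34, the single genes were Cox6a1 0.20, Cox7a1 0.33, Cox7a2 0.055, Cox8b 0.27, Cox8a 0.15, Cox4i2 -0.71, Cox6b1 0.36, Cox7b 0.22, Atp5g2 0.20, Cyc1 0.39, Cycs 0.40, Uqcrc2 0.37, Uqcrc1 0.37, Uqcrfs1 0.24, Atp5j2 0.30 and Atp5e 0.31, and the balances were Cox6b2 minus Cox6b1 -0.51 and Atp5g1 minus Atp5g3 0.0093. One spot of WT 1, whose local background lay far above its signal, entered that fit: it took the 75th percentile of WT 1 to 1301, and without the spot it was 739. Without that spot the median was 0.14, the genes were Cox7a1 0.12, Cox8b 0.069, Cox4i2 -0.15, Cox6b1 0.18, Cox7b 0.020, Cyc1 0.19, Cycs 0.20, Uqcrc2 0.16, Uqcrc1 0.17, Uqcrfs1 0.037, Atp5j2 0.099 and Atp5e 0.11, and the balances Cox6b2 minus Cox6b1 -0.25 and Atp5g1 minus Atp5g3 0.010. With the arrays also at a common scale before the offset of 50 was added, the median was -0.03 and the remaining sign changes were Cox6b1 0.014, Cycs 0.0082, Cox6b2 minus Cox6b1 -0.050 and Atp5g1 minus Atp5g3 0.012. With array position as a covariate, which sets the PKR2 arrays against WT 1 alone, the median was 0.15, the genes were Cox7a1 0.27, Cox7a2 0.27, Cox8b 0.32, Cox6b1 0.17, Cox7b 0.48, Cyc1 0.29, Cycs 0.52, Uqcrc2 0.17, Uqcrfs1 0.35, Cox7c 0.15, Atp5j2 0.13 and Atp5e 0.084, and the balances Cox7a1 minus Cox7a2 -0.00043, Cox8b minus Cox8a 1.23 and Cox6b2 minus Cox6b1 -0.61, of which Cox8b minus Cox8a kept its sign. Values were Cyc1 0.042 and Cycs 0.086 with quantile normalization, Cox6a2 -0.017, Cox4i1 -0.036 and Uqcrq -0.043 with median scaling, Cox6b2 0.0046, Cox6b1 0.054, Cox6b2 minus Cox6b1 -0.050 and Atp5g1 minus Atp5g3 0.028 with the authors' deposited values, and Uqcrc1 0.0025 with the mean of the tested probes. They were Cox6a2 -0.069, Cox4i1 -0.080, Atp5g1 -0.20, Uqcrq -0.094 and Cox8b minus Cox8a -0.10 with slide as a fixed block, Cox4i1 -0.0067, Atp5g1 -0.019 and Uqcrq -0.017 with slide as a random block, Cycs 0.021 and Uqcrq -0.031 with scan range as a block, and Cox6a2 -0.047, Cox4i1 -0.054, Atp5g1 -0.015 and Uqcrq -0.054 without WT 2 and PKR2 2. With the adipocyte markers as a covariate they were Cox6a2 -0.24, Cox4i1 -0.18, Atp5g1 -0.20, Atp5g3 -0.12, Uqcrq -0.33, Cox6a2 minus Cox6a1 0.14 and Cox8b minus Cox8a -0.14, of which Cox6a2 minus Cox6a1 kept its sign. Leaving out 1 array at a time, the median ran from -0.20 without PKR2 2 to 0.054 without WT 2. Single genes that changed sign ran as follows: Cox6a2 from -0.18 to 0.19, Cox7a1 from -0.23 to 0.16, Cox8b from -0.39 to 0.0040, Cox4i1 from -0.18 to 0.16, Cox6b2 from -0.25 to 0.15, Cox6b1 from -0.30 to 0.015, Atp5g1 from -0.027 to 0.18, Atp5g2 from -0.18 to 0.032, Atp5g3 from -0.17 to 0.47, Cyc1 from -0.18 to 0.083, Cycs from -0.18 to 0.12, Uqcrc1 from -0.20 to 0.027, Uqcrfs1 from -0.40 to 0.11, Uqcrq from -0.22 to 0.19. Balances that changed sign ran as follows: Cox8b minus Cox8a from -0.16 to 0.50, Cox6b2 minus Cox6b1 from -0.26 to 0.32, Atp5g1 minus Atp5g3 from -0.40 to 0.22, Atp5g2 minus Atp5g3 from -0.53 to 0.064. Without WT 4 the Cox6a2 minus Cox6a1 balance was 0.31 (exact permutation p = 0.171). The causes of the other changes were not tested. The labels give the groups no shared replicate numbers, so no replicate block was fitted; the pairing by slide (slides 5 and 6) gave a median of -0.19 with 37 of the 42 genes lower. The dimmest arrays, WT 2 and PKR2 4, limit what can be read of dim genes such as Cox4i2.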

Other observations

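The direction of most members turned under one processing. With normexp background correction as it stands, 38 of the 42 genes had higher means in PKR2 hearts, against 13 with the scanner's processed signal. Leaving 1 spot of WT 1 out of that fit brought the count to 34, with a median difference still above 0 (0.14). Adding a common scale of the arrays as a second change brought it to 15, with a median of -0.03.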
